A study of Danio rerio with 11 samples.

Results

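Genes for ribosome biogenesis factors and for subunits of the RNA exosome were examined in the zebrafish liver. Members were the genes paired with a human ortholog whose zebrafish name begins with nop, nol, utp, rrp, noc or exosc followed by a digit, together with bms1, ebna1bp2, nat10, dkc1, gar1, nhp2, fbl, pes, bop1 and mphosph10 where listed. This choice matched 49 genes, out of 9411 that have a human ortholog and 32520 that the tables list in all. As grouped here, 20 members belong to the small subunit processome, 6 to the box C/D and H/ACA snoRNPs, 12 to large subunit assembly and 9 to the exosome. The other 2 (nat10 and nol4lb) were not assigned to these groups. For nat10 this is a choice of grouping and not a statement that it has no part in them. The gene exosc6 was listed at a mean count of 0, so 48 members carried values. No member was matched for fbl or exosc3, and these genes were not analysed here.

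Ribosomes are built in the nucleolus, where the rRNA precursor is transcribed by RNA polymerase I, modified by guide RNA-protein complexes (snoRNPs) and folded by the small subunit processome. Large subunit precursors then mature through a separate series of assembly factors. The RNA exosome, a barrel of subunits with attached nucleases, trims the precursors and degrades faulty RNA, and in the liver, an organ that exports large amounts of protein, ribosome supply is tied to growth and feeding.

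RNA was sequenced from livers of adult fish of the AB strain, without any transgene or mutation named in the labels. The control group (28.5-Ctrl, 2 libraries) was kept at 28.5 °C without melatonin. The induced torpor group (18.5-mel, 2 libraries) was cooled to 18.5 °C over 4 weeks and then given 24 µM melatonin for 10 days. The radiation group (28.5-rad, 3 libraries) stayed at 28.5 °C and received a total whole-body dose of 32.64 cGy by the sample labels, or 32.68 cGy by the protocol text. The group with both treatments (18.5-mel-rad, 4 libraries) received the cold, the melatonin and the radiation. Since cold and melatonin always came together in these groups, their shares cannot be told apart. Melatonin was dissolved in DMSO, and no DMSO is described for the groups without melatonin, so the solvent cannot be told apart from them. By the protocol text, fish were anaesthetised with tricaine before irradiation, and no such step is described for the unirradiated groups. Radiation and this handling therefore cannot be told apart either. By the methods, 3 further libraries came from a group irradiated in the cold, which was not analysed here. That group was taken to be part of the authors' fit, which the sources used here do not state. Neither the sex of the fish nor whether a library holds more than a single liver is given in the sources used here. The p-values rest on a spread per gene that all groups of the authors' fit share, not on that of the compared groups alone. The methods call the RNA used for qPCR from 28.5-Ctrl and 18.5-mel-rad biological replicates. They do not say so of the sequenced libraries, so how far this spread is biological or technical is not stated.

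The files hold no value per library, so each value rests on a group estimate and its standard error (SE). Each gene has a mean normalised count, assumed to be over 14 fitted libraries, and a log2 fold change of each treated group against 28.5-Ctrl. The level of a gene in a group was estimated from these, and its SE is given on the log2 scale. The 48 members had a median mean count of 420.4, against 129.9 for the genes with a human ortholog, and the lowest estimated group level of any member was 13.9. Median SEs of the members' log2 fold changes were 0.60 in 18.5-mel, 0.53 in 18.5-mel-rad and 0.56 in 28.5-rad. A gene was called where the Benjamini-Hochberg adjusted p-value (q) of a 2-sided Wald test was at most 0.1 and the change at least 1.5-fold.

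All 20 hepatocyte markers found had estimated levels above 3 counts in every group. Their summed level was 0.408 times control in 18.5-mel, 0.929 times in 18.5-mel-rad and 0.413 times in 28.5-rad, and 2 of the 19 tested were called lower in 18.5-mel and none in 28.5-rad. Markers of other cells moved with the groups as well. The summed level of 27 oocyte and ovary markers was 806 counts in 28.5-Ctrl, 94818 in 18.5-mel, 440 in 18.5-mel-rad and 4832 in 28.5-rad, and 26 of the 27 were called higher in 18.5-mel. Estimated levels were at or under 3 counts for 6 of the 27 in 28.5-Ctrl and for 12 in 18.5-mel-rad. Of 18 cell cycle markers, which also include ccnb1 of the oocyte list, 16 were called higher in 18.5-mel. The summed level of 12 enterocyte markers was 21.9 times control in 28.5-rad, where 10 of them were called higher. Summed over 10 exocrine pancreas markers, the level was 20.1 times control in 18.5-mel-rad, and none of these was called against control. Summed over 12 T and B cell markers, it was 6.04 times control in 28.5-rad, where 4 of the 8 tested were called higher. The part of other cell types in the results below was not tested, and in bulk tissue a change in the number of cells of a type and a change in RNA per cell cannot be told apart.

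Members were more often above than below control in induced torpor, below control after radiation alone, and close to control where the treatments were combined. In 18.5-mel, 16 of the 48 members were called, 14 of them higher and 2 lower. That share of 33.3% was near the background, where 33.6% of genes with a human ortholog passed the same rule (24.3% higher and 9.36% lower). The log2 fold change was above 0 for 39 members, with a median of 0.68 against 0.38 over the genes with a human ortholog. All genes whose mean count reached 50 had a median of 0.18 on this scale in 18.5-mel, and relative to that value the median was 0.50 for the members and 0.20 for the genes with a human ortholog. With a t distribution in place of the normal, 8 members were called in 18.5-mel, namely exosc1, exosc4, exosc7, exosc10, nol7, nol11, nop53 and utp11. A test against a change of 0.58 instead of 0 called 3, namely exosc1, nop53 and utp11. No background share is given for these 2 settings, so the smaller counts are not a result about the members.

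After radiation alone, none of the 48 members was called in 28.5-rad by the Wald test, against a background of 9.07% (7.02% higher and 2.05% lower). At an unadjusted p under 0.05, 2 members passed, exosc1 and nol4lb, against 18.4% of the genes with a human ortholog. The log2 fold change was below 0 for 40 members, with a median of −0.40 against 0.08 over the genes with a human ortholog. These shifts were smaller than the median member SE of 0.56, so the direction of most single members was not resolved.

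Where cold, melatonin and radiation were combined, nop16 was the only member called in 18.5-mel-rad, against a background of 1.46% (1.02% higher and 0.446% lower). The log2 fold change was above 0 for 33 members and its median was 0.27, against 0.06 over the genes with a human ortholog. At q up to 0.4, exosc1 was called in addition, as lower, against a background of 5.97%.

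**Figure D1:**
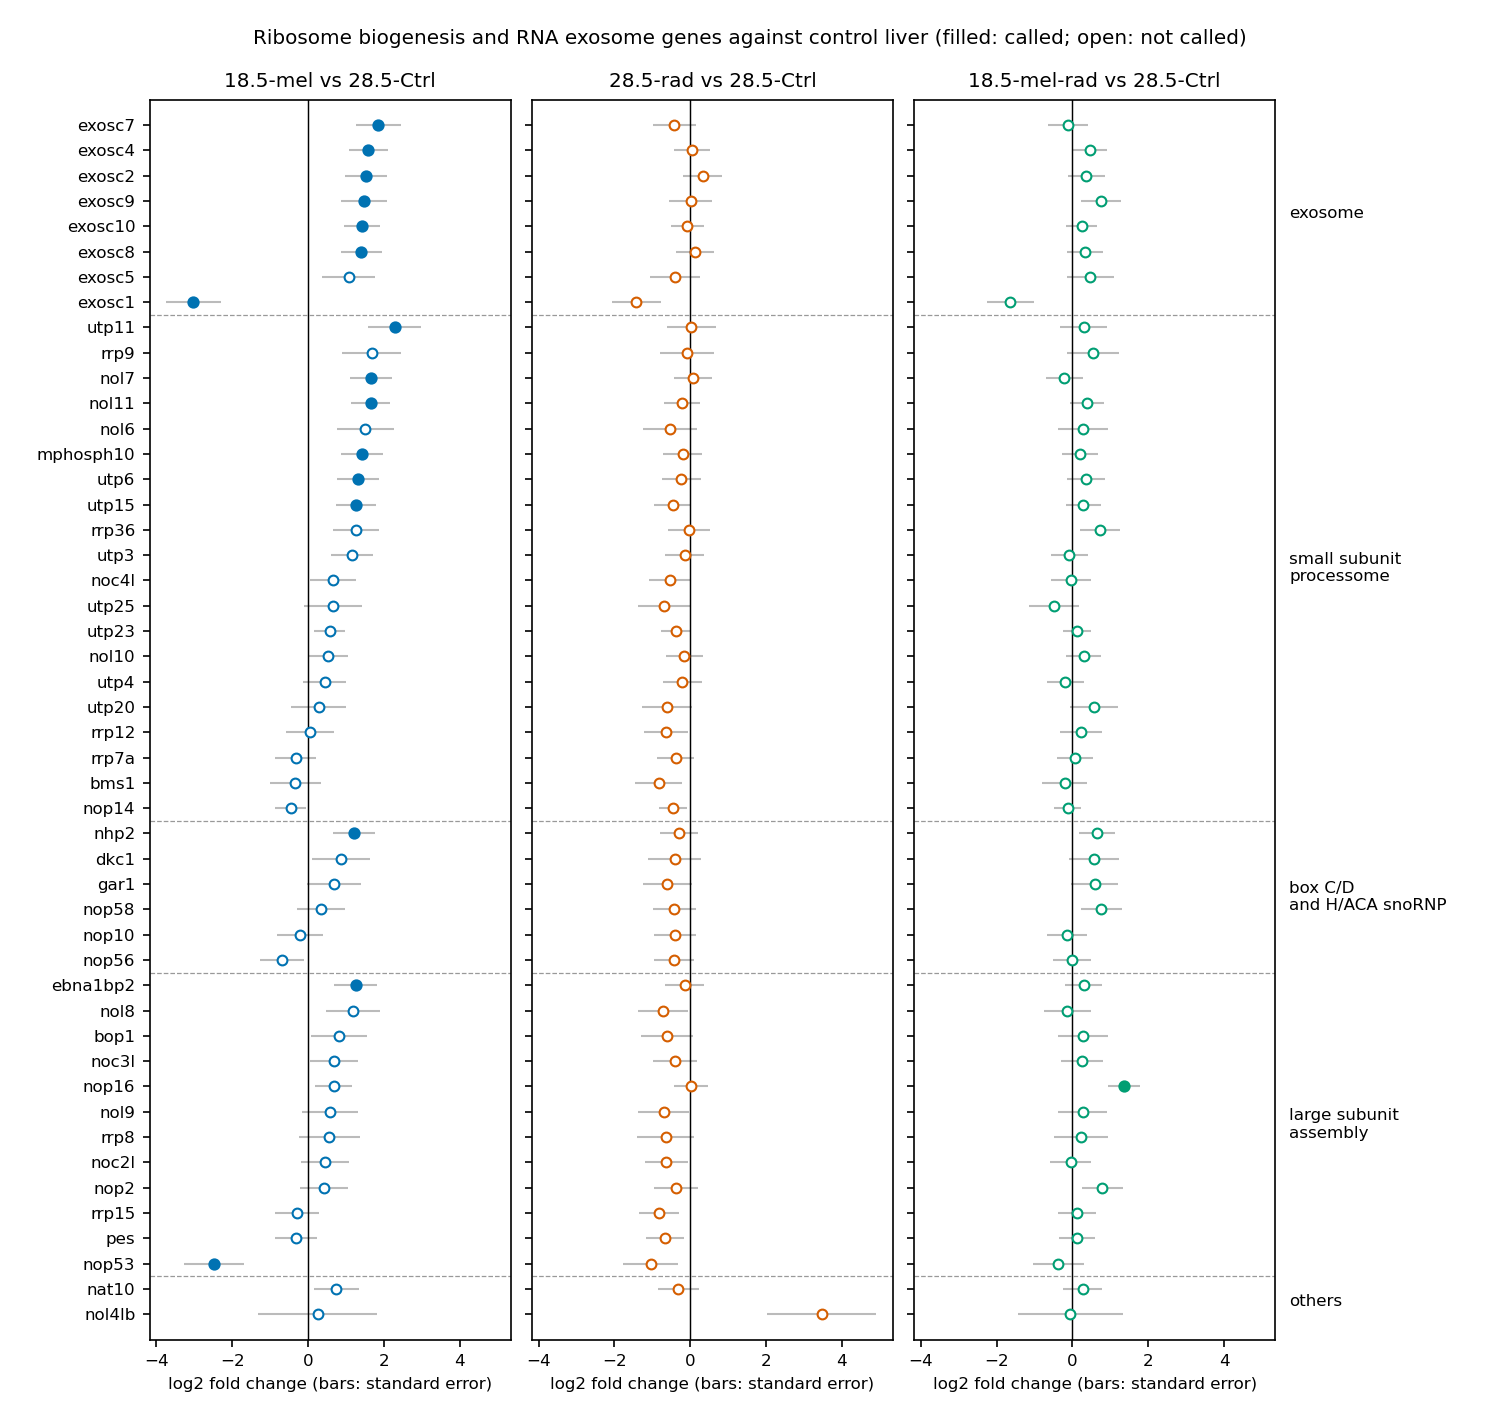
Log2 fold change against 28.5-Ctrl (horizontal axes, bars are SE) of the 48 members with values, ordered by role group from top to bottom, in the 3 comparisons; filled points were called. In 18.5-mel the exosome genes other than exosc1 lie to the right of 0, in 28.5-rad 40 of 48 members lie to the left of 0, and in 18.5-mel-rad the single filled point is nop16.

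Exosome genes were the role group with the highest share of called members in induced torpor: 7 of the 8 with values, 6 higher and 1 lower. The 75% called higher compared with 24.3% of the genes with a human ortholog. The ring subunits exosc4, exosc7, exosc8 and exosc9, which form the barrel, the RNA-binding cap subunit exosc2 and the nuclear nuclease exosc10 rose 2.65- to 3.62-fold. Estimated levels of exosc10 were 336 counts in 28.5-Ctrl, 899 in 18.5-mel, 399 in 18.5-mel-rad and 319 in 28.5-rad, with SEs of 0.24 to 0.33. The 18.5-mel group stood above the others, neither of the irradiated groups being called against control. In 18.5-mel the log2 fold change of exosc10 was 1.42 (SE 0.47, q = 0.0154).

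The largest increase of the group was that of exosc7, with estimated levels of 117 counts in 28.5-Ctrl, 422 in 18.5-mel, 108 in 18.5-mel-rad and 87.4 in 28.5-rad. Its log2 fold change in 18.5-mel was 1.86 (SE 0.60, q = 0.0133). For exosc4 the change was 1.60 (SE 0.51, q = 0.0109). The 3 other calls were closer to the threshold: exosc2 changed by 1.52 (q = 0.0295), exosc8 by 1.41 (q = 0.0441) and exosc9 by 1.48 (q = 0.0564). With centring on the median gene the change of exosc9 was 1.30 and was no longer called, and with the t distribution exosc2, exosc8 and exosc9 were not called. For exosc5, the ring subunit with the lowest mean count (54.2) among those with values, the log2 fold change was 1.07 (95% interval −0.28 to 2.42, q = 0.266) and did not pass the test.

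The cap subunit exosc1, which in human cells contacts the RNA entry side of the barrel, went the other way. Its estimated level was 2988 counts in 28.5-Ctrl, 368 in 18.5-mel, 962 in 18.5-mel-rad and 1114 in 28.5-rad, with SEs of 0.36 to 0.51. All 3 treated groups lay below control, and 18.5-mel lowest. Expression fell by 3.02 on the log2 scale in 18.5-mel (8.12-fold lower, SE 0.71, q = 0.000399). Changes of −1.42 in 28.5-rad (SE 0.65, q = 0.162) and −1.63 in 18.5-mel-rad (SE 0.62, q = 0.246) did not pass the test. The summed level of the 8 exosome genes was 0.836 times control in 18.5-mel, with exosc1 lower and 6 others higher.

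In 28.5-rad the 7 exosome genes other than exosc1 had log2 fold changes between −0.42 (exosc7) and 0.33 (exosc2), none of them called (background 9.07%). In 18.5-mel-rad these lay between −0.12 (exosc7) and 0.75 (exosc9), again without a call (background 1.46%). The 18.5-mel level differed from that of 28.5-rad for all 8 genes in the direct test, lower in 28.5-rad for 7 and higher for exosc1 (1.60, SE 0.65, q = 0.0463). The background of that test was 39.3%, with 25.4% lower and 13.8% higher in 28.5-rad. Against 18.5-mel-rad the 18.5-mel level differed for 6 of the 8. There the background was 34.5%, with 25.2% lower and 9.31% higher in 18.5-mel-rad. Lower in 18.5-mel-rad were exosc7 (−1.97, SE 0.52, q = 0.00156), exosc10 (−1.17, q = 0.0205), exosc2, exosc4 and exosc8, while exosc1 was higher (1.39, SE 0.62, q = 0.0841). All of these direct calls were lost when the variances of both comparisons with control were added in full. Between 18.5-mel-rad and 28.5-rad none of the 8 was called (background 14.6%), with differences between −0.21 and 0.87.

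**Figure D2:**
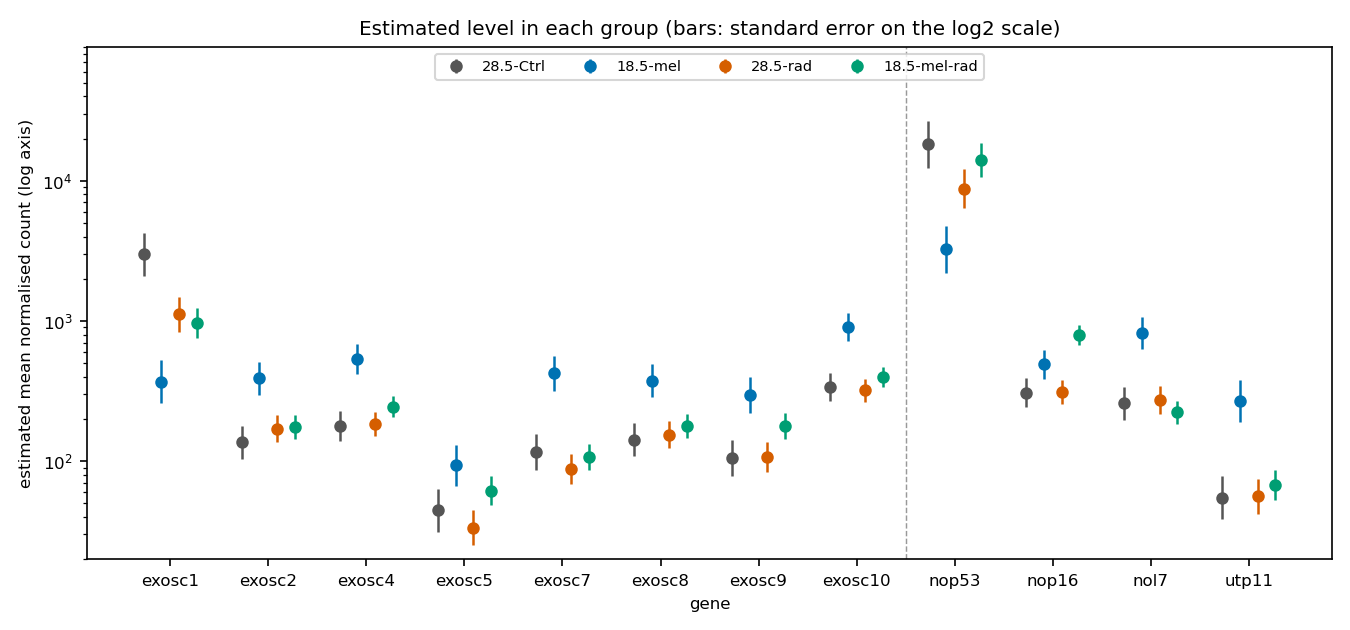
Estimated mean normalised count (vertical log axis, bars are the SE taken on the log2 scale) of the 8 exosome genes with values and of nop53, nop16, nol7 and utp11 in the 4 groups. The 18.5-mel points are the highest for 7 exosome genes, nol7 and utp11 and the lowest for exosc1 (368 counts) and nop53 (3234 counts), and for nop16 the 18.5-mel-rad point is the highest (797 counts).

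Among the 20 genes of the small subunit processome, which packs the growing rRNA precursor around the U3 snoRNP, 6 rose in 18.5-mel and none fell. The 30% called higher compared with 24.3% of the genes with a human ortholog. The median log2 fold change was 0.91, against 0.38 over those genes, and 17 of the 20 were above 0. The largest increase of any member in 18.5-mel was that of utp11, a processome component, whose estimated level was 54.9 counts in controls and 269 under induced torpor. The level was 55.9 in 28.5-rad and 67.6 in 18.5-mel-rad, so that 18.5-mel stood alone above the other groups. The log2 fold change in 18.5-mel was 2.29 (4.89-fold, SE 0.69, q = 0.00743).

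Among the processome genes that were called, nol7 and nol11 had the next largest increases, both of more than 3-fold. The first was nol7, whose human counterpart also acts in early pre-rRNA processing, and its estimated levels were 258 counts in 28.5-Ctrl, 820 in 18.5-mel, 222 in 18.5-mel-rad and 273 in 28.5-rad. Its log2 fold change in 18.5-mel was 1.67 (SE 0.55, q = 0.0155). For nol11, the vertebrate-specific partner of the UTP-A subcomplex that binds the 5′ end of the precursor, the levels were 413, 1300, 539 and 358 counts in the same order and the change in 18.5-mel was 1.65 (SE 0.51, q = 0.00903). For each of these genes 18.5-mel had the highest level, and neither irradiated group was called against control.

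By subcomplex, UTP-A had 2 of 3 members called higher in 18.5-mel, with a background of 24.3%. These were nol11 and utp15, the latter at 1.28 with q = 0.0616, and utp4 had a change of 0.44 (q = 0.623). The UTP-B member utp6 rose by 1.32 (q = 0.0705). In the MPP10 complex, mphosph10 rose by 1.42 (q = 0.0465), while its partner utp3 had a change of 1.16 (q = 0.12). The U3-specific protein rrp9 had a larger estimate, 1.68, with a larger SE of 0.78 (q = 0.104), and nol6, linked to the UTP-C complex, had 1.52 (SE 0.76, q = 0.138). The member with a near-median change, noc4l, had 0.66 (q = 0.465). Estimates below 0 were those of nop14, the partner of noc4l (−0.46), of rrp7a (−0.33) and of the GTPase bms1 (−0.33), none of them called. For rrp12, among the 3 members with the highest counts, the change was 0.05 (q = 0.965), and −0.13 after centring.

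No processome gene was called against control in 28.5-rad (background 9.07%) or in 18.5-mel-rad (background 1.46%). In 28.5-rad log2 fold changes ran from −0.84 (bms1) to 0.08 (nol7), with 18 of 20 below 0. In 18.5-mel-rad they ran from −0.49 (utp25) to 0.74 (rrp36). Directly compared with 18.5-mel, 12 of the 20 were called lower in 28.5-rad (60%, against 25.4% of the genes with a human ortholog). In 18.5-mel-rad 6 were called lower (30%), near the background of 25.2%. These 6 were utp11 (−1.99, SE 0.60, q = 0.00636), nol7 (−1.88, SE 0.48, q = 0.000915), nol11 (−1.27, q = 0.0213), utp3, mphosph10 and utp15. None of the 20 was called between 18.5-mel-rad and 28.5-rad (background 14.6%, with 5.1% higher), although 19 of these differences were above 0 (median 0.50).

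The snoRNP proteins carry out the chemical marking of rRNA: the box C/D proteins nop56 and nop58 hold the methylation complex, and dkc1, with gar1, nhp2 and nop10, forms the pseudouridine synthase complex. Of the 6 genes only nhp2 was called in 18.5-mel, as higher (16.7%, against 24.3% of the genes with a human ortholog). Its estimated levels were 450 counts in 28.5-Ctrl, 1048 in 18.5-mel, 703 in 18.5-mel-rad and 365 in 28.5-rad. The log2 fold change of nhp2 in 18.5-mel was 1.22 (SE 0.55, q = 0.0882). The catalytic subunit dkc1 had a change of 0.87 (SE 0.76, q = 0.437). The 2 box C/D proteins differed in sign without passing the test, nop58 at 0.34 (q = 0.742) and nop56 at −0.68 (q = 0.429). All 6 estimates were below 0 in 28.5-rad, between −0.60 and −0.30, and none was called (background 9.07%).

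In the direct comparison of the irradiated groups, nop58 was higher in 18.5-mel-rad than in 28.5-rad by 1.17 (SE 0.48, q = 0.0794). Its levels were 1269 counts in 28.5-Ctrl, 1609 in 18.5-mel, 2144 in 18.5-mel-rad and 950 in 28.5-rad, so that 28.5-rad was lowest and 18.5-mel-rad highest. All 6 genes had differences above 0 in that comparison, with a median of 0.96. In the RefSeq annotation of another assembly, snoRNA genes lie within dkc1 (5 genes), nop58 (3), nop2 (2) and nop56 (1), and reads from these could not be separated here.

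Large subunit factors had a more mixed pattern. Of 12 members, 1 rose (8.33%, against 24.3% in the background) and 1 fell in 18.5-mel, and the median log2 fold change was 0.58. The assembly factor ebna1bp2 rose by 1.26 (SE 0.56, q = 0.0872), from an estimated 432 counts to 1032. The gene nop53, which in human cells recruits the exosome helicase to large subunit precursors, had the highest mean count of all members (11349). Its estimated level was 18159 counts in 28.5-Ctrl, 3234 in 18.5-mel, 14076 in 18.5-mel-rad and 8800 in 28.5-rad. It fell by 2.49 on the log2 scale in 18.5-mel (5.62-fold lower, SE 0.79, q = 0.0113), and its changes of −1.05 in 28.5-rad (q = 0.385) and −0.37 in 18.5-mel-rad (q = 0.959) did not pass the test. Compared directly, nop53 was higher in 18.5-mel-rad than in 18.5-mel by 2.12 (SE 0.69, q = 0.0118).

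Against this, nop16, a factor of early large subunit particles, had its highest estimated level in the combined treatment. Its estimated level was 308 counts in 28.5-Ctrl, 492 in 18.5-mel, 797 in 18.5-mel-rad and 311 in 28.5-rad. The log2 fold change was 1.37 in 18.5-mel-rad (SE 0.42, q = 0.0853), against 0.68 in 18.5-mel (q = 0.325) and 0.02 in 28.5-rad (q = 0.989). This call was lost at q of 0.05, with the t distribution, with the test against 0.58 and with adjustment over all genes with a p-value. In the direct test against 18.5-mel, nop16 was not called in 18.5-mel-rad (0.69, SE 0.42, q = 0.223), so it was not shown to differ from induced torpor alone. In the direct test against 28.5-rad it was higher in 18.5-mel-rad by 1.35 (SE 0.37, q = 0.00553). The rRNA methyltransferase nop2 also differed there, by 1.17 (SE 0.48, q = 0.0854).

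The PeBoW partners pes and bop1, which act in one complex, had changes of −0.32 (q = 0.724) and 0.82 (q = 0.464) in 18.5-mel. The methyltransferase rrp8, a gene with a near-median change in its group, had 0.56 (q = 0.668). Overlapping protein-coding genes lie at bop1, noc3l, nol9, rrp8, exosc8, nop56, rrp9, utp15 and utp20 in the RefSeq annotation, and the counting mode of the authors is not given in the sources used here, so shared reads cannot be told apart. In 28.5-rad, 11 of the 12 large subunit members had estimates below 0 (median −0.64) with none called (background 9.07%).

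The RNA acetyltransferase nat10, not assigned to these groups here, had changes of 0.75 (q = 0.387) in 18.5-mel, −0.31 (q = 0.773) in 28.5-rad and 0.27 (q = 0.961) in 18.5-mel-rad. The gene nol4lb, matched by its name alone, had the lowest mean count (53.1) and the widest errors of the 48 members with values. Its estimated level was 14.4 counts in 28.5-Ctrl, 17.3 in 18.5-mel, 13.9 in 18.5-mel-rad and 161 in 28.5-rad. The change of 3.48 in 28.5-rad (SE 1.44, q = 0.116) did not pass the test against control. In the direct tests the difference of 18.5-mel-rad from 28.5-rad was −3.53 for nol4lb (SE 1.22, q = 0.0328), and the gene was higher in 28.5-rad than in 18.5-mel by 3.22 (SE 1.41, q = 0.0651).

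The direct tests between treated groups were then read over all members. The difference of 28.5-rad from 18.5-mel was called for 25 of 48 members, 23 lower in 28.5-rad and 2 higher, where the background was 39.3% (25.4% lower and 13.8% higher). The share called lower, 47.9%, was thus above its background. That of 18.5-mel-rad from 18.5-mel was called for 13 members, 11 lower and 2 higher, a share of 27.1% that did not exceed its background of 34.5%, in total or among genes called lower (22.9% of members against 25.2%, with 9.31% higher in the background). Between 18.5-mel-rad and 28.5-rad 4 members were called, 8.33% against 14.6% (5.1% higher and 9.52% lower in the background), namely nop2, nop16 and nop58 as higher and nol4lb as lower, and 45 of the 48 differences were above 0 with a median of 0.59 (−0.02 over the genes with a human ortholog). None of these direct calls held when the variances of the comparisons with control were added in full, which counts the control error in both. Differences of 18.5-mel-rad from 28.5-rad were also above 0 for 58 of 58 cytosolic ribosomal protein genes and 18 of 20 hepatocyte markers. They were above 0 for 0 of 27 oocyte and ovary, 2 of 12 enterocyte, 0 of 12 T and B cell and 3 of 19 macrophage and neutrophil markers. For the other marker lists the counts were 8 of 10 (exocrine pancreas), 1 of 4 (red blood cell) and 9 of 18 (cell cycle).

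**Figure D3:**
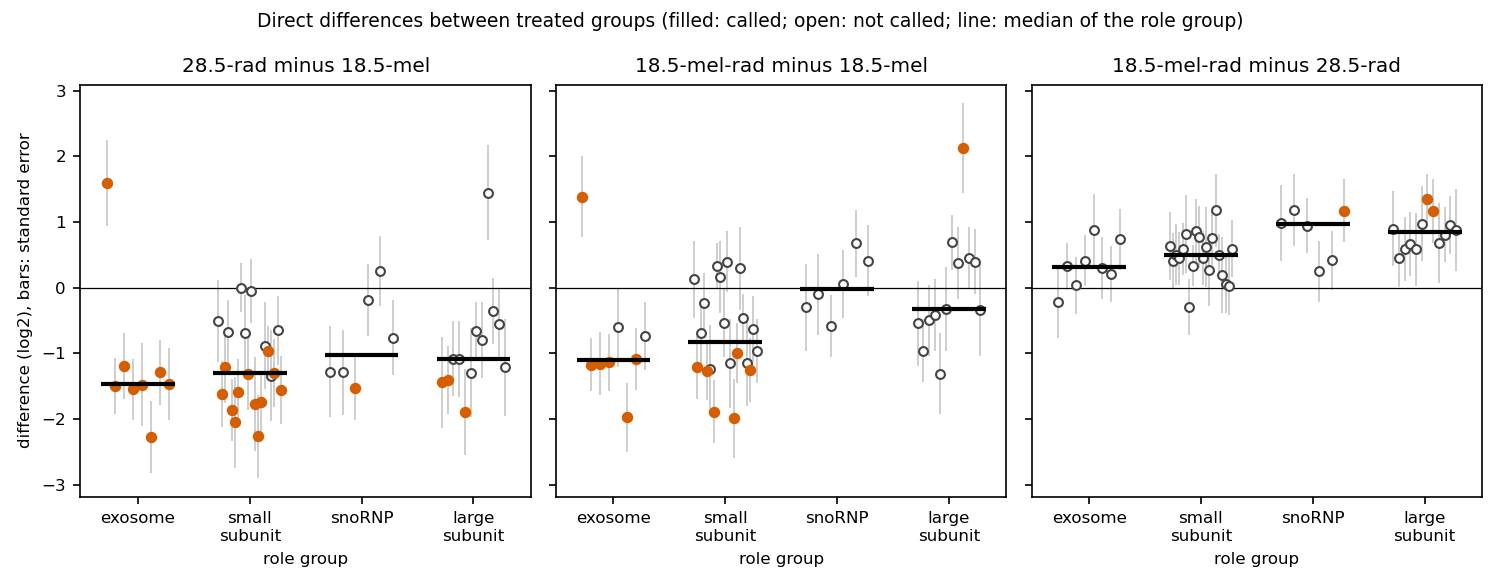
Difference between treated groups (vertical axis, log2, bars are SE) for each member of 4 role groups, with the median of each role group as a line and called genes filled. Exosome and processome genes lie mostly below 0 in both comparisons with 18.5-mel (medians −1.47 and −1.30, then −1.11 and −0.83), and mostly above 0, but uncalled, between the irradiated groups.

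The change with radiation in the cold with melatonin was compared with that at 28.5 °C without it, as an interaction. It was called for 5 of 48 members (10.4%), against a background of 35.3% (10.6% positive and 24.7% negative). Positive values belonged to nop53 (3.17, SE 1.00, q = 0.01) and exosc1 (2.81, SE 0.90, q = 0.0116). Negative values belonged to utp11 (−2.02, SE 0.88, q = 0.0737), nol7 (−1.97, SE 0.70, q = 0.0243) and exosc2 (−1.49, SE 0.70, q = 0.0975). With the t distribution or with variances added in full, nop53 and exosc1 were called and the other 3 were not. With 2 control and 2 induced torpor libraries behind it, this test had a median member SE of 0.76.

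**Figure D4:**
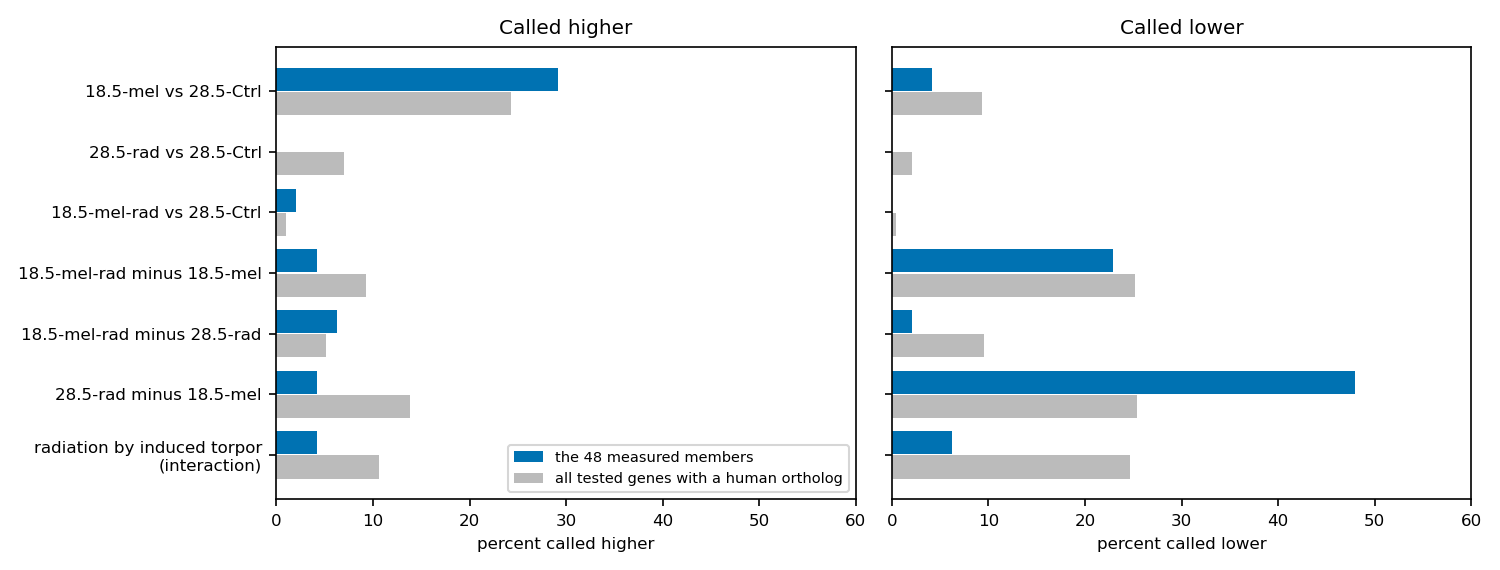
Percent of the 48 measured members (blue) and of all tested genes with a human ortholog (grey) called higher (left) and lower (right) in the 3 comparisons with control, the 3 direct comparisons and the interaction. The members exceed the grey bar most clearly among genes lower in 28.5-rad than in 18.5-mel (47.9% against 25.4%).

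Other genes of the same pathways gave a context for the members, with 24.3% of the genes with a human ortholog called higher in 18.5-mel and 9.36% lower as background. In 18.5-mel, 7 of 15 exosome nucleases and cofactors (46.7%) rose and none fell, among them the catalytic nuclease dis3 (1.43, SE 0.54, q = 0.037), the helicase mtrex that feeds RNA to the nuclear exosome (1.46, q = 0.047) and zcchc8, a partner of that helicase (2.60, SE 0.53, q = 2.3e-05). Of 12 snoRNP assembly factors, 5 rose (41.7%) and none fell, including the ATPases ruvbl1 (3.07, SE 0.56, q = 2.4e-06) and ruvbl2 (2.02, q = 0.0082) and the H/ACA factor naf1 (2.84, q = 3.1e-05). Among 14 genes of RNA polymerase I and its factors, 3 rose (21.4%), a share below the background. Processome and small subunit factors that are not members were also below it, with 6 higher (17.6%) and 2 lower of 34, among them imp4 (2.12, SE 0.62, q = 0.0049), a partner of mphosph10, and the late factor pno1 (−2.98, SE 0.82, q = 0.0029). Large subunit factors that are not members had 6 higher (13.0%) and 4 lower (8.7%) of 46, with the helicase ddx21 (−3.21, SE 0.92, q = 0.0045) and rsl24d1 (−2.79, q = 0.0014) lowest. None of these lists had a call in 28.5-rad (background 9.07%). In 18.5-mel-rad (background 1.46%) naf1 (1.84, q = 0.049) and ubtfl, of the RNA polymerase I list (1.57, q = 0.046), were called.

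Most ribosomal protein genes were called lower in 18.5-mel, while few biogenesis factors were. Of 57 tested genes with names of cytosolic ribosomal proteins, 53 were lower in 18.5-mel and 1 was higher (rps19bp1, whose product binds a ribosomal protein), with a median log2 fold change of −3.02 over the list. Of the 16 members called in 18.5-mel, exosc1 (−3.02) and nop53 (−2.49) were the 2 that fell as well. Summed levels in 18.5-mel were 0.121 times control for the ribosomal proteins and 0.847 times for the members. The member sum is weighted by nop53, which held 18159 of 45423 counts in 28.5-Ctrl. In 18.5-mel 39 of the 48 members had log2 fold changes above 0. Sums below control were those of large subunit (0.467) and exosome members (0.836), and of the other large (0.457) and small subunit factors (0.749). Single abundant genes weigh on such sums. In 28.5-Ctrl, nop53 held 18159 of the 23531 large subunit counts, and exosc1 held 2988 of the 4046 exosome counts. Median log2 fold changes of these 4 lists were above 0 in 18.5-mel (0.58, 1.45, 0.12 and 0.21 in the same order). Sums above control were those of processome (1.61), snoRNP (1.03) and remaining members (1.67), snoRNP assembly factors (2.93), exosome nucleases and cofactors (1.80) and RNA polymerase I genes (1.57). In 28.5-rad and 18.5-mel-rad the ribosomal protein medians were −0.92 and −0.63 with no gene called (backgrounds 9.07% and 1.46%). Of 9 MYC network genes, which regulate ribosome biogenesis in many cell types, 3 rose and 2 fell in 18.5-mel, from mycla (5.39, SE 0.81, q = 5.3e-09) to mxd4 (−2.40, SE 0.47, q = 1.1e-05).

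**Figure D5:**
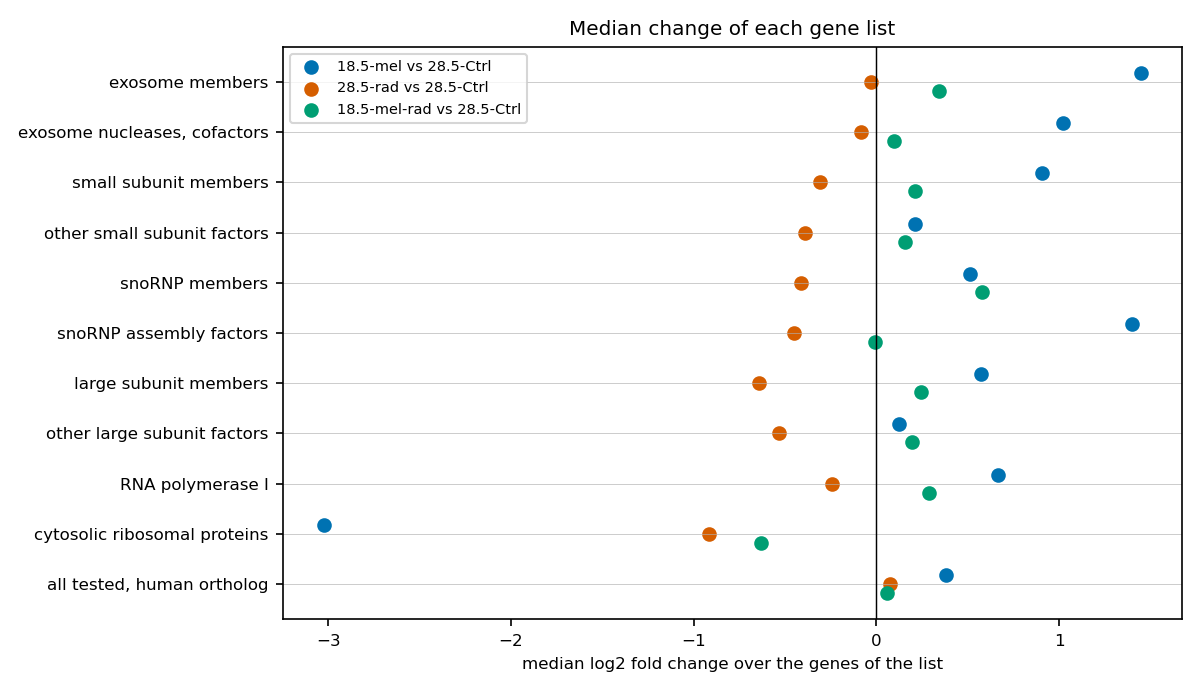
Median log2 fold change against 28.5-Ctrl (horizontal axis) over the genes of each role group and gene list, with a point for each of the 3 comparisons. In 18.5-mel the medians of the biogenesis lists lie between 0.12 and 1.45, and the ribosomal protein list lies at −3.02.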

How the data were processed

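Libraries were prepared from liver RNA with a TruSeq kit and sequenced on an Illumina instrument. By the methods, the authors used FastQC and cutadapt on the reads, STAR for alignment (GRCz11), HTSeq for counting and DESeq2 to compare each group with 28.5-Ctrl. Versions are not given in the sources used here. The 6 deposited tables hold only the output of that fit. The deposited signal is the mean of normalised counts over the libraries of that fit, assumed to be 14 in 5 groups. The authors' log2 fold changes and their log2 standard errors are unshrunken, the deposited score is the Wald statistic, and the authors' p-values and adjusted p-values accompany it. These columns are the authors' own comparisons. Log2 fold changes and standard errors printed here are the deposited values, since no counts per library were at hand, while p-values were recomputed.

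The 2-sided Wald p was adjusted over all genes with a deposited adjusted p. Group levels were solved from the mean count and the fold changes, with the group that was not analysed set to the mean log2 fold change of 28.5-rad and 18.5-mel-rad. Direct differences had the shared control variance, recovered from the 3 standard errors, removed, and the interaction summed 4 group variances. Procedures were tested on simulated data with Python 3.11.15, numpy 2.4.6, pandas 2.3.3 and scipy 1.17.1. In each comparison the named members were the 8 called with the largest change in each direction among those at a mean count of 50 or more, the 5 with the smallest q per direct test, every exosome gene, the 3 highest and 3 lowest by mean count and the median of each role group, and further members were named after their values were seen. Members, lists and tests were chosen with earlier results of these data known. All 49 members were found in the RefSeq annotation, which is of another assembly, so no coordinates are given.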

Additional observations from a re-analysis of the deposited data

Results flagged for a closer look

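For 5 members the change with radiation differed between 18.5 °C with melatonin and 28.5 °C without, by the Wald test of the interaction adjusted over all genes. That is 10.4% of 48, against a background of 35.3% of the genes with a human ortholog. The difference was 3.17 for nop53, where radiation went with 2.12 in the cold and −1.05 at 28.5 °C, and 2.81 for exosc1, with 1.39 and −1.42. It was −2.02 for utp11, with −1.99 and 0.03, −1.97 for nol7, with −1.88 and 0.08, and −1.49 for exosc2, with −1.16 and 0.33. All of these are log2 values. With a t distribution or with variances added in full nop53 and exosc1 were called, and with centring or at q of 0.05 these and nol7. The same interaction was called for 27 of 27 oocyte and ovary markers, as negative, and as positive for 53 of 57 ribosomal protein genes and 10 of 19 hepatocyte markers. It was also negative for 16 of 18 cell cycle, 9 of 12 enterocyte, 2 of 8 T and B cell and 1 of 8 exocrine pancreas markers. Of 17 macrophage and neutrophil markers, 4 were called negative and 1 positive, and of 2 red blood cell markers 0 were called. The part of other cell types in the 5 results was not tested.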

How the results depend on the processing

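Counts of called members are given in the order 18.5-mel, 28.5-rad and 18.5-mel-rad against control (16, 0 and 1), then 18.5-mel-rad minus 18.5-mel, 18.5-mel-rad minus 28.5-rad, 28.5-rad minus 18.5-mel and the interaction (13, 4, 25 and 5). Apart from 5.97% at q of 0.4 in 18.5-mel-rad, no background share is given for the altered settings below. Their counts therefore do not show whether members lost calls faster than other genes. With a t distribution of 9 degrees of freedom the counts became 8, 0, 0, 6, 0, 14 and 2. A test against 0.58 left 3, 0 and 0. At q of 0.05 the counts were 11, 0, 0, 9, 2, 19 and 3, and at q of 0.4 there were 4 in 28.5-rad and 2 in 18.5-mel-rad. Adjustment over all genes with a p-value left 0 in 18.5-mel-rad. Variances added in full left 0, 0, 0 and 2 of the direct calls and the interaction, since the control error then enters both comparisons. Centring left 3 interaction calls and, against control, turned the sign of rrp12 in 18.5-mel (−0.13) and of exosc9 (−0.058), nop16 (−0.052), utp11 (−0.042) and exosc4 (−0.020) in 28.5-rad, none of them called before. It also turned 2 uncalled differences of 28.5-rad from 18.5-mel and 7 uncalled interaction values. With centring the medians moved by less than the spread between members. The level assumed for the group not analysed changed none of the counts. It cannot alter the log2 fold changes or the tests against control, and enters the direct tests and the interaction only through the recovered variances. That assumption does enter the estimated levels, and their SEs do not include it. With that group set to 28.5-rad, members' control levels were 0.686 to 1.08 times those printed. Set to 18.5-mel-rad, they were 0.890 to 1.16 times those printed. No paired analysis was possible because the tables hold no value per library, and for that reason no library could be left out in turn. Depth per library is not known, and median SEs above 0.5 limit what single members can show.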
